A study of Arabidopsis thaliana with 38 samples.

Results

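Root ground tissue cells in which UAS constructs drove either of a pair of BIRD genes, IME (IMPERIAL EAGLE) or BLJ (BLUEJAY), were set against each other. The members were chosen by the array titles, which name 3 biological replicates of each line, so that 6 of the 38 arrays of the series carry the comparison and every probe set was used apart from the control probe sets. Both lines were labelled as carrying their construct in an SHR background, in the C24 ecotype, as were the reference arrays labelled SHR (3) and WT (3), and in all these groups cells marked by J0571 were sorted from roots of seedlings at 5 days after germination on standard media. The labels do not say that SHR stands for a mutant, nor whether a line is 1 clone or how many plants were pooled. J0571 is a GAL4 driver line of the ground tissue, so a UAS construct is active only where J0571 is. RNA was labelled with biotin by a one-cycle protocol and read on single-colour ATH1 arrays, and a further 12 arrays of the same kind, 3 each of lines carrying UAS-NUC, UAS-MGP, UAS-JKD or UAS-SCR in the SHR background, are used only to place the values. Signals are linear array intensities, and changes are UAS-IME minus UAS-BLJ after log2(signal + 16), each given with a standard error (SE), where adding 16 shrinks the change of dim probe sets.

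The ground tissue of the root is made of the cortex and, inside it, the endodermis, which arise from one initial by an asymmetric division. SHR (SHORT-ROOT) is a transcription factor that moves outward from the stele and, with SCR (SCARECROW), directs that division and endodermis identity, including the Casparian strip, a band of modified cell wall that seals the layer. The BIRD genes, to which IME, BLJ, JKD, NUC and MGP belong, code for transcription factors of the IDD family, with zinc fingers, and act with SHR and SCR in these cells.

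The 6 arrays had similar brightness, with a median signal of 82.4 to 86.9 in UAS-IME and 78.5 to 80.1 in UAS-BLJ, and the number of arrays limits the precision. The trimmed mean was about 248 on each of the 6, as in values scaled to a common level. Similar brightness therefore does not show that the arrays are alike. The low end of the signal was not alike. Its 10th percentile was 8.31 to 9.53 on UAS-IME arrays, within the 8.08 to 10.2 of the UAS-NUC, UAS-MGP, UAS-JKD and UAS-SCR arrays, against 3.6 to 3.98 on UAS-BLJ arrays, close to the 3.23 to 3.43 of SHR and the 3.02 to 3.89 of WT. The log2 ratio of 3' over 5' control probes of GAPDH was 0.51 ± 0.18 in UAS-IME and 0.02 ± 0.12 in UAS-BLJ (SD, n = 3 each). That of actin was 4.28 ± 0.24 in UAS-IME and 3.56 ± 0.14 in UAS-BLJ. In the reference arrays it was 4.06 ± 0.14 in SHR and 1.78 ± 0.26 in WT, so WT stood furthest from both lines. The differences between UAS-IME and UAS-BLJ run with the lines on all 6 arrays and cannot be told apart from the constructs, and they stand beside every result that follows. UAS-IME replicate 1 stood a little apart, with correlations of 0.969 and 0.972 to the other arrays of its line, which correlated at 0.988 with each other, while those of UAS-BLJ ran from 0.986 to 0.988, all across probe sets.

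BLJ itself separated the lines. Its probe set (locus AT1G14580) read 14.4, 5.27 and 1.40 on the UAS-IME arrays, against 488, 411 and 430.1 on the UAS-BLJ arrays. The groups did not overlap, and the change was -4.35 ± 0.39 (limma, adjusted p = 1.69e-07). UAS-IME thus lay at the level of SHR (14.2 ± 9.10, SD, n = 3) and UAS-BLJ above WT (196 ± 26.1, n = 3), as the labels say for a line that drives BLJ. JKD, a BIRD gene that neither construct carries, read 27.9, 22.2 and 19.6 in UAS-IME and 34.1, 37.1 and 19.4 in UAS-BLJ. These overlap (-0.22 ± 0.22, adjusted p = 0.579), and both lie far under the 215 ± 41.2 of SHR and the 147 ± 23.4 of WT. SCL23, a GRAS gene related to SCR, also overlapped between the lines (76.0 ± 9.05 in UAS-IME and 76.6 ± 11.2 in UAS-BLJ, SD, n = 3 each). No probe set that could be named belongs to IME, so its level was not checked.

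With limma, 1800 of 15777 probe sets tested (11.4%) were called between the lines at an adjusted p under 0.05, 1090 of them higher in UAS-IME (6.91%) and 710 lower (4.5%). After quantile normalization between arrays the split was 830 higher and 791 lower, so the balance of directions depends on the scaling. Calls of at least 2-fold numbered 387 higher (2.45%) and 200 lower (1.27%). UAS-IME replicate 1 weighed on the count: without it 843 probe sets were called, 451 of them higher. Without UAS-BLJ replicate 1 there were 990 calls and without UAS-BLJ replicate 3 there were 915. Against SHR, whose arrays both comparisons use, 3333 probe sets were called in UAS-IME (21.1%) and 1756 in UAS-BLJ (11.1%). UAS-IME against the mean of UAS-NUC and UAS-MGP gave 1221 calls (7.74%), and UAS-BLJ against the mean of UAS-JKD and UAS-SCR gave 7744 (49.1%). Arrays of UAS-JKD and UAS-SCR differ from those of UAS-BLJ in the low end and in the GAPDH log2 ratio (1.22 ± 0.78 in UAS-JKD and 1.40 ± 0.06 in UAS-SCR), and the part of either in that count was not tested. The genes described below were called between the lines unless the text says that they were not. Those with an adjusted p of 0.05 or more in the main comparison of the lines were also not called.

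Among named genes the highest change was that of AT1G51990. It read 400.1, 289.8 and 282 in UAS-IME, against 2.47, 1.67 and 1.65 in UAS-BLJ. The UAS-BLJ values lay below the 10th percentile of their arrays, and SHR averaged 3.53 ± 2.87 (SD, n = 3), while the mean of UAS-IME was above that of WT (218 ± 77.0, n = 3), and the change was 4.23 ± 0.27 (limma, adjusted p = 1.16e-09). The means of the other lines were 21.7 in UAS-NUC, 12.5 in UAS-MGP, 144.5 in UAS-JKD and 143 in UAS-SCR. AT1G10390 was the next, at 444, 277 and 233 in UAS-IME and 10.9, 15.5 and 0.964 in UAS-BLJ (3.73 ± 0.34). SHR read 231 ± 28.7 and WT 297 ± 41.3. The means of the other lines were 541 in UAS-NUC, 24.2 in UAS-MGP, 53.7 in UAS-JKD and 26.7 in UAS-SCR, so low values were not particular to UAS-BLJ.

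CSA1, a resistance-type gene of the TIR-NBS-LRR class, read 197, 244 and 236 in UAS-IME and 19.0, 29.2 and 23.6 in UAS-BLJ. All UAS-IME arrays lay above all UAS-BLJ arrays (2.60 ± 0.15, adjusted p = 3.21e-10), and WT (277 ± 8.56) was again the closer to UAS-IME. SHR averaged 46.4 ± 8.92. The means of the other lines were 221 in UAS-NUC, 317 in UAS-MGP, 63.3 in UAS-JKD and 70.1 in UAS-SCR, so high values were not particular to UAS-IME. AT1G48670 had its highest mean of the 8 groups in UAS-IME, at 524, 407 and 383, against 43.8, 64.8 and 70.7 in UAS-BLJ (2.59 ± 0.17), with a mean of at most 96.8 in the other 6 groups. That contrast was also called against the mean of UAS-NUC and UAS-MGP (2.76 ± 0.15, limma, adjusted p = 5.23e-11), lines whose arrays share the low end of UAS-IME. LEA4-5, which encodes a late embryogenesis abundant protein, averaged 527 ± 215 in UAS-IME and 105 ± 16.5 in UAS-BLJ (2.11 ± 0.31). TRM21, of a family of proteins that bind the cortical microtubule regulator TON1, averaged 594 ± 78.9 in UAS-IME and 133 ± 7.01 in UAS-BLJ (2.03 ± 0.27), with WT at 843 ± 178 and SHR at 117 ± 31.0. PSAE-1, a nuclear gene for a subunit of photosystem I, averaged 203 ± 34.2 in UAS-IME and 39.0 ± 13.1 in UAS-BLJ (2.01 ± 0.48, adjusted p = 0.00962), a call that ended with quantile normalization without UAS-IME replicate 1 (adjusted p = 0.0518). Of the other genes among the 12 highest, SGN1 and rpl20 are described with their groups below, and AT4G13580, AT5G66390 and AT2G22620 with the genes lowered in SHR.

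**Figure D1:**
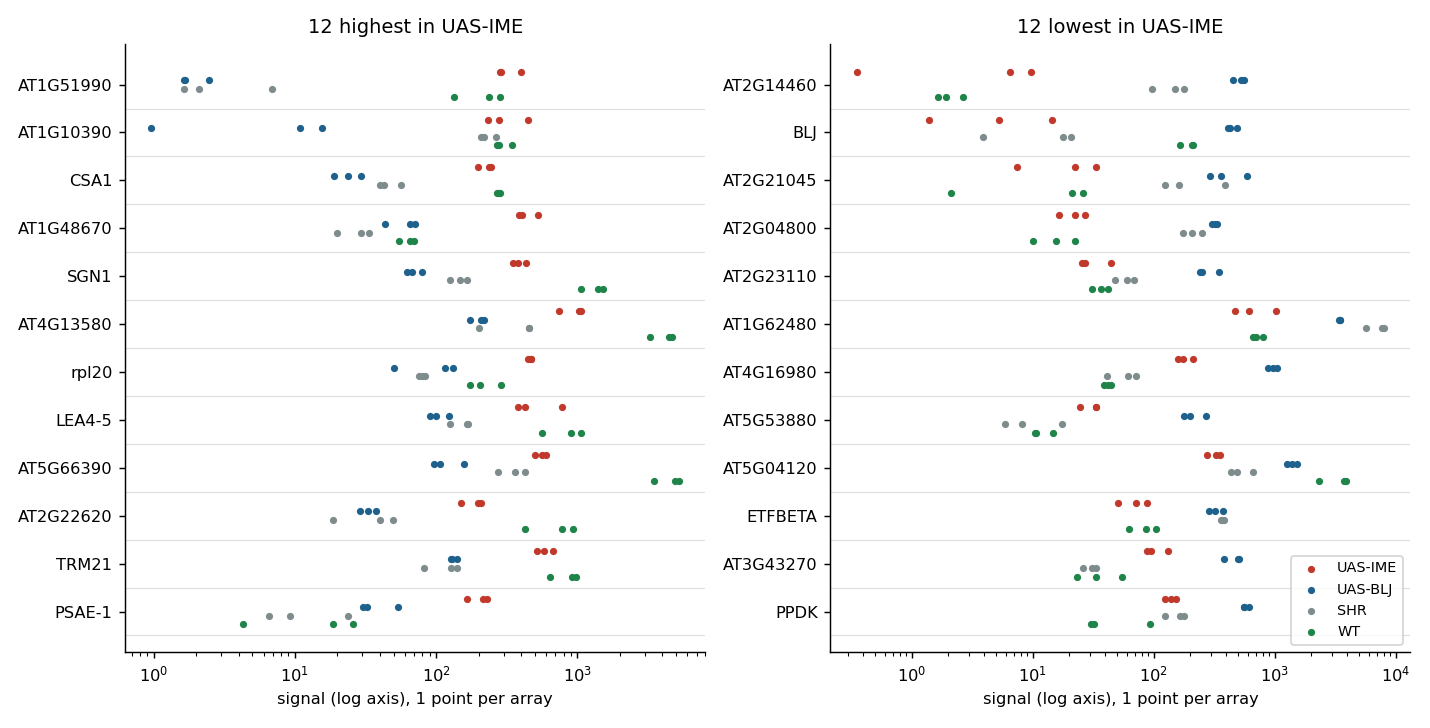
Signal of the 12 highest and the 12 lowest named genes of UAS-IME minus UAS-BLJ (log axis), with 1 point per array for UAS-IME, UAS-BLJ, SHR and WT. In each of the 24 genes the UAS-IME arrays do not overlap those of UAS-BLJ, and the genes were chosen for their calls, while the place of SHR and WT beside them varies from gene to gene.

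The lowest named gene in UAS-IME was AT2G14460. It read 9.77, 0.352 and 6.57 in UAS-IME, against 562, 458 and 529.6 in UAS-BLJ (-4.65 ± 0.25, limma, adjusted p = 1.45e-10). UAS-IME was low, as were WT (2.07 ± 0.514) and UAS-NUC, UAS-MGP, UAS-JKD and UAS-SCR (means of 3.47 to 8.35), whereas UAS-BLJ stood above SHR (142 ± 40.8). Several further genes shared the order of UAS-IME beside WT and UAS-BLJ beside SHR. AT2G04800 read 16.4, 22.6 and 27 in UAS-IME and 337, 322 and 305 in UAS-BLJ (-3.16 ± 0.21), with SHR at 212 ± 38.8 and WT at 16.1 ± 6.13. AT2G21045 read 22.2, 7.46 and 33.6 in UAS-IME and 361, 588 and 294 in UAS-BLJ (-3.54 ± 0.54), with SHR at 225 ± 142 and WT at 16.4 ± 12.7. ETFBETA, which encodes a subunit of a mitochondrial electron transfer flavoprotein, read 88.8, 50.8 and 72.0 in UAS-IME and 319, 378 and 289.9 in UAS-BLJ (-2.01 ± 0.22), with SHR at 369 ± 9.47 and WT at 84.5 ± 20.6. The other lines had no common order over these 3 genes. AT2G04800 averaged 38.7 in UAS-NUC, 374 in UAS-MGP, 32.5 in UAS-JKD and 52.9 in UAS-SCR. AT2G21045 averaged 27.5 ± 14.2 in UAS-NUC, 170.1 ± 186 in UAS-MGP, 57.8 ± 21.8 in UAS-JKD and 1625 ± 778 in UAS-SCR (SD, n = 3 each), the last being the highest mean of the 8 groups. ETFBETA averaged 67.9 in UAS-NUC, 407 in UAS-MGP, 249.8 in UAS-JKD and 74.1 in UAS-SCR.

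Among the remaining genes of the 12 lowest, 3 were called above SHR in both lines and further above it in UAS-BLJ. AT4G16980 read 176, 214 and 160.4 in UAS-IME and 1048, 969 and 890.4 in UAS-BLJ (-2.31 ± 0.21), while SHR averaged 58.2 ± 15.3. AT5G53880 averaged 30.5 ± 5.01 in UAS-IME and 215 ± 47.6 in UAS-BLJ (-2.30 ± 0.27), against 10.5 ± 6.12 in SHR. AT3G43270 averaged 104 ± 22.9 in UAS-IME and 461 ± 70.3 in UAS-BLJ (-1.99 ± 0.29), against 30.3 ± 3.66 in SHR. AT2G23110 averaged 32.5 ± 10.4 in UAS-IME and 282 ± 59.0 in UAS-BLJ (-2.62 ± 0.23), with means of at most 68.6 in the other 6 groups. PPDK, the gene of pyruvate orthophosphate dikinase, which interconverts pyruvate and phosphoenolpyruvate, averaged 139 ± 14.8 in UAS-IME and 579 ± 35.2 in UAS-BLJ (-1.94 ± 0.25), with SHR at 157 ± 28.8. AT5G04120 was lower in UAS-IME (320.5 ± 38.1) than in UAS-BLJ (1404 ± 124), a change of -2.08 ± 0.20, with SHR at 526 ± 118 and WT at 3329.5 ± 884. AT1G62480 was at 702 ± 287 in UAS-IME and 3442 ± 53.6 in UAS-BLJ (-2.34 ± 0.22), against 7176 ± 1262 in SHR and 728 ± 74.4 in WT.

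A large share of the calls could not be named. Of 587 calls of at least 2-fold, 284 were probe sets without a single gene or of a type shared between genes. The one with the smallest adjusted p of all averaged 301 in UAS-IME and 3520 in UAS-BLJ (-3.47, adjusted p = 1.89e-13), with SHR at 5257 and WT at 231, again UAS-IME beside WT and UAS-BLJ beside SHR. It was singled out after its values were seen.

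The endodermis was the first tissue list, with genes of its Casparian strip. Of 5 measured members 4 were higher in UAS-IME and none lower, where 6.91% of all probe sets were called higher, and their median change was 1.61, against 0.02 over all probe sets tested. SGN1, a receptor-like kinase of the Casparian strip pathway (AT1G61590), read 431, 349.8 and 378 in UAS-IME and 62.2, 79.7 and 67.6 in UAS-BLJ. The change of 2.23 ± 0.34 (limma, adjusted p = 0.000186) came with a mean of 146 ± 19.2 in SHR, between those of the lines, and of 1326 ± 239 in WT. GSO1, the receptor kinase that watches over the continuity of the strip, read 1062, 859 and 876 in UAS-IME and 396, 420.2 and 343 in UAS-BLJ (1.23 ± 0.28, adjusted p = 0.0061). SHR averaged 281 ± 73.0 and WT 1394 ± 289.6. DIR9 (AT2G39430), a dirigent-type gene of the kind that guides lignin deposition, read 384, 320.1 and 334 in UAS-IME and 90.6, 119 and 99.6 in UAS-BLJ (1.61 ± 0.32, adjusted p = 0.00225). In this gene UAS-IME was beside SHR (309 ± 68.6), and it was UAS-BLJ that fell below (-1.43 ± 0.32 against SHR, adjusted p = 0.00389). PER9 (AT1G44970), a class III peroxidase, read 331, 241 and 309 in UAS-IME and 71.8, 87.2 and 96.8 in UAS-BLJ (1.61 ± 0.36, adjusted p = 0.00641), both a small part of the 2767 ± 652 of WT. It lost its call with quantile normalization without UAS-IME replicate 1 (adjusted p = 0.0528). EN7, an endodermis marker, went the other way in value, at 334 ± 44.7 in UAS-IME and 501 ± 6.46 in UAS-BLJ (-0.57 ± 0.26, adjusted p = 0.167). Unlike the other genes of the list, its mean was higher in SHR than in WT, and both lines averaged below SHR. Summed over the 5 genes, the signal was 2124 to 2491 in UAS-IME and 1115 to 1208 in UAS-BLJ, against 1291 to 1801 in SHR and 6595 to 9715 in WT. In such bulk samples, fewer cells of a type and less RNA per cell cannot be told apart.

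Of 5 measured genes of the cortex list 3 were lower in UAS-IME and none higher, where 4.5% of all probe sets were called lower, with a median change of -0.87. CORTEX (AT1G09750), a marker of the layer, read 1896, 2669.9 and 2134 in UAS-IME and 4958, 5231 and 5758 in UAS-BLJ (-1.26 ± 0.25, limma, adjusted p = 0.0021). Both lines were above SHR (801 ± 199) and WT (703 ± 173). AT1G62510 read 27.2, 28.9 and 53.9 in UAS-IME and 201, 150.0 and 183 in UAS-BLJ (-1.91 ± 0.27, adjusted p = 8.16e-05). UAS-IME was beside WT (27.1 ± 2.95), and both lines were far below SHR (1145 ± 246). NPF6.4 (AT3G21670), a nitrate transporter gene, averaged 179 ± 22.9 in UAS-IME and 339 ± 37.7 in UAS-BLJ (-0.87 ± 0.16, adjusted p = 0.00158). CO2 (AT1G62500), the gene behind a cortex marker line, read 81.9, 169.8 and 174 in UAS-IME and 233, 211 and 218 in UAS-BLJ, which do not overlap, but the change was not called (-0.64 ± 0.44, adjusted p = 0.387). AT5G02000 overlapped (-0.17 ± 0.21, limma, adjusted p = 0.661). In WT cells of the meristematic zone sorted by a cortex marker, CORTEX (313), CO2 (79.1) and AT5G02000 (104) averaged below the WT of J0571. AT1G62510 (657) and NPF6.4 (547) averaged above it. Those cells come from a different sort, and how well the list marks cortex was not tested. CO2 and AT1G62510 are neighbours in the gene order of the TAIR10.1 table, and 1 protein-coding gene lies between CO2 and AT1G62480, one of the lowest genes above. Over the 5 genes the summed signal was 2263 to 3080 in UAS-IME and 5759 to 6594 in UAS-BLJ, against 3520 to 4052 in SHR and 1195 to 1690 in WT. CORTEX made up most of this sum in UAS-IME (mean 2233) and UAS-BLJ (mean 5316). In SHR the largest parts were CO2 (1441) and AT1G62510 (1145), so the sums do not weigh the 5 genes alike.

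**Figure D2:**
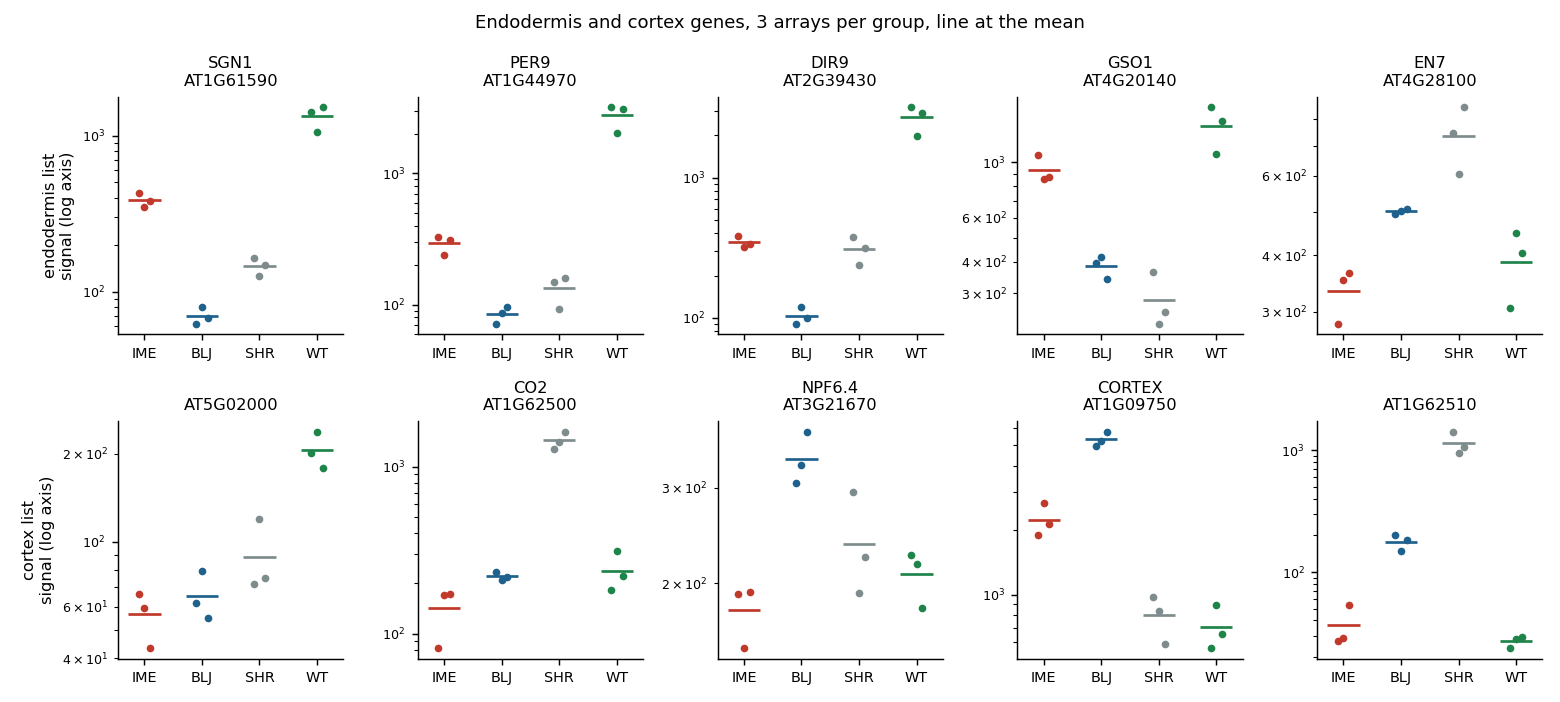
Signal of the 5 endodermis genes (upper row) and the 5 cortex genes (lower row) by group on log axes, with 1 point per array and a line at the mean of 3 arrays. SGN1, PER9, DIR9 and GSO1 are higher in UAS-IME than in UAS-BLJ with WT above both, and NPF6.4, CORTEX and AT1G62510 are lower in UAS-IME.

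Few markers of layers outside the sorted tissue could be measured. The stele gene LHW read 189 to 320.4 in UAS-IME and 171 to 242 in UAS-BLJ. The root hair expansins EXPA7 and EXPA18 together summed to 62.6 to 239 in UAS-IME and 113 to 168 in UAS-BLJ, and the stem cell niche genes BBM and AGL42 to 167 to 249 in UAS-IME and 151 to 197 in UAS-BLJ. All 3 ranges overlap and none of these 5 genes was called, BBM coming closest at 1.08 ± 0.42 (adjusted p = 0.105). The root cap and suberin lists had no probe set that could be named.

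The next question was where the lines lie on the axis between SHR and WT. Probe sets were taken that differed at least 2-fold between SHR and WT and were called in both labelling sets, the one-cycle arrays and a separate two-cycle set of 3 SHR and 3 WT arrays, leaving out BLJ. The direction and size that chose them come from SHR and WT arrays, while the arrays of both lines entered the filter on low values and the shared estimate of the spread in the one-cycle fit. Of 185 probe sets lower in SHR, 56 were higher in UAS-IME than in UAS-BLJ (30.3%, against 6.91% of all probe sets tested) and 4 were lower (2.16%, against 4.5%). Their median change was 0.44, and 137 (74.1%) had a positive change, as had 51.9% of all probe sets. All 3 UAS-IME arrays were above all 3 UAS-BLJ arrays in 87 of the 185, where 21.8% of all probe sets were so. The distance to WT stayed large: the median difference from WT was -1.54 in UAS-IME and -1.87 in UAS-BLJ, and WT was above UAS-IME in all 56 of the probe sets that were called higher there. With quantile normalization 44 were called higher and 4 lower, without UAS-IME replicate 1 the counts were 38 and 4, and with both changes they were 29 and 5.

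By array, the mean of these 185 probe sets, with the mean of SHR set to 0, was 0.54, 0.28 and 0.48 in UAS-IME and -0.14, 0.05 and -0.08 in UAS-BLJ on the log2 scale. The groups did not overlap. WT stood at 2.21, 1.94 and 2.24. The other lines spread over the same range, with UAS-NUC (0.28 to 0.64), UAS-JKD (0.31 to 0.42) and UAS-SCR (0.48 to 0.77) on the side of UAS-IME, and UAS-MGP (-0.27 to 0.04) on that of UAS-BLJ. The arrays of all these other lines have a low end like that of UAS-IME, and its part in the set level was not tested.

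Members of this set are also among the 12 highest genes. AT4G13580 read 1031, 740.0 and 1056 in UAS-IME and 175, 217 and 208 in UAS-BLJ, beside 369 ± 146 in SHR and 4139 ± 773 in WT, and its change was 2.14 ± 0.38 (limma, adjusted p = 0.000974). AT5G66390, listed as PEROXIDASE 72 in the gene table and so a class III peroxidase like PER9, read 566, 499.9 and 596 in UAS-IME and 97.2, 157 and 106 in UAS-BLJ (2.08 ± 0.42, adjusted p = 0.00283). SHR was at 354 ± 75.2, which UAS-BLJ was called below (-1.45, adjusted p = 0.0289), and WT at 4557 ± 916. AT2G22620 averaged 185 ± 30.4 in UAS-IME and 33.0 ± 4.35 in UAS-BLJ (2.03 ± 0.46, adjusted p = 0.00675, but 0.0667 with quantile normalization without UAS-IME replicate 1), with SHR at 36.3 ± 16 and WT at 713 ± 259. SGN1, TRM21, PER9, DIR9 and GSO1 belong to the set as well. The 4 probe sets that went the other way include AT5G04120, above. The gene set, the endodermis list and the 12 highest genes therefore overlap and are not separate evidence, and 5 of the 12 highest genes are members of the set.

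Of 259 probe sets higher in SHR than in WT, 37 were higher in UAS-IME than in UAS-BLJ (14.3%, against 6.91%) and 19 lower (7.34%, against 4.5%). The median change was 0.15. Directions were thus mixed, and the set level by array overlapped between the lines (0.23, -0.07 and -0.02 in UAS-IME and -0.10, -0.00 and -0.15 in UAS-BLJ, against -1.67 to -1.83 in WT). Members lower in UAS-IME were AT2G21045, ETFBETA and PPDK, given above, CYP71B26, a cytochrome P450 gene (65.4 ± 15.8 in UAS-IME and 207 ± 10.4 in UAS-BLJ, -1.47 ± 0.29), and AT1G61740 (222 in UAS-IME and 584 in UAS-BLJ on average, -1.34 ± 0.19), whose WT mean was 226 and SHR mean 619. Members higher in UAS-IME included AT2G34810 (95.2 in UAS-IME and 14.1 in UAS-BLJ, 1.89 ± 0.25), LCR69, a defensin-like gene (263 in UAS-IME and 66.9 in UAS-BLJ, 1.73 ± 0.40), and GH9B13, of a family of glycosyl hydrolases that includes cellulases (1139 in UAS-IME and 502 in UAS-BLJ, 1.15 ± 0.20). These last 4 were picked from the set after their values were seen. Without UAS-IME replicate 1 the counts in this set were 13 higher and 17 lower, and without UAS-BLJ replicate 3 they were 18 and 15, so the excess of higher calls depends on single arrays.

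**Figure D3:**
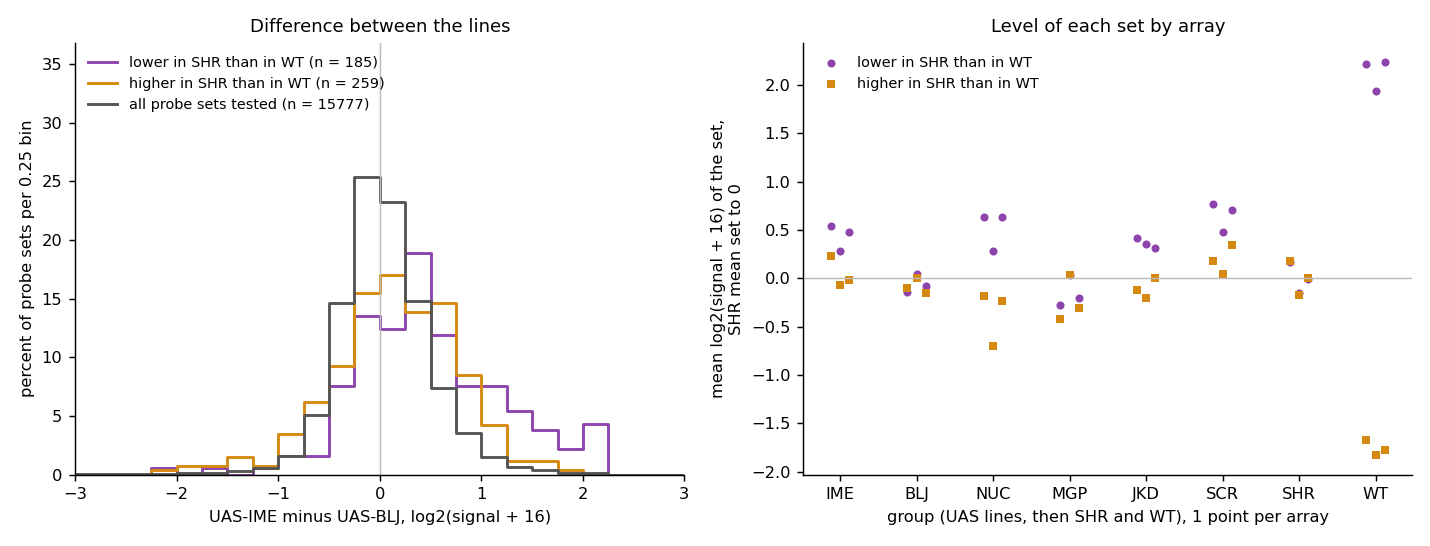
Left, share of probe sets by their change UAS-IME minus UAS-BLJ in bins of 0.25 (log2), for the 185 probe sets lower in SHR than in WT, the 259 higher in SHR and all 15777 tested, where the first is shifted to the right (median 0.44, against 0.02 for all). Right, the mean of each set on every array with the SHR mean at 0, where the 3 UAS-IME arrays lie above the 3 UAS-BLJ arrays for the set lower in SHR and overlap them for the other, and WT is far from both lines.

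A few genes lay on opposite sides of SHR in the lines. Against SHR, 1003 of 15777 probe sets were called in both lines. Only 20 of these were called in opposite directions and also between the lines, 10 each way, and 13 of the 20 had 1 gene. Described here are the 3 of each direction with the largest smaller change, each called against SHR in both lines and between them. The comparisons with SHR share the SHR arrays, so the values are given side by side. AT3G60920 read 104, 92.7 and 69.4 in UAS-IME and 10.6, 0.892 and 1.19 in UAS-BLJ, around 32.5, 33.2 and 26.7 in SHR. These 3 groups did not overlap, and the change between the lines was 2.39 ± 0.23 (limma, adjusted p = 4.98e-07), with WT at 101 ± 14.4. AT5G45510 read 1285, 1182 and 1073 in UAS-IME and 349.9, 397 and 309 in UAS-BLJ, around 721, 533 and 643 in SHR (1.70 ± 0.23 between the lines), while WT averaged 157 ± 23.8. AT4G37900 read 89.7, 74.5 and 72.4 in UAS-IME and 7.30, 35.8 and 4.58 in UAS-BLJ (1.70 ± 0.28). One UAS-BLJ array was here at the level of SHR (41.5, 35.4 and 34.4). In the other direction stood AT2G14460, above. AT2G02400 read 86.8, 101 and 86.3 in UAS-IME and 287, 333 and 305 in UAS-BLJ, around 193, 170.2 and 145 in SHR (-1.59 ± 0.19). AT1G24530 read 28.4, 28.9 and 28.4 in UAS-IME and 123, 165 and 145 in UAS-BLJ (-1.84 ± 0.23), around 55.7, 49.9 and 72.9 in SHR. WT averaged 27 ± 7.58 in AT2G02400 and 44.9 ± 19.9 in AT1G24530.

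**Figure D4:**
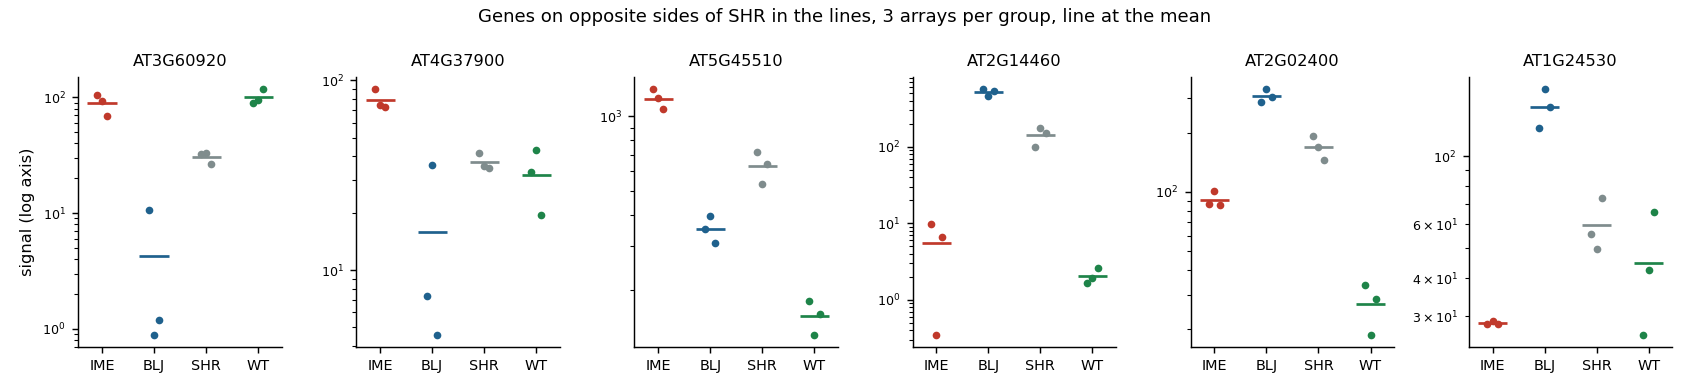
Signal of the 6 genes called on opposite sides of SHR (log axes), with 1 point per array and a line at the mean of 3 arrays for UAS-IME, UAS-BLJ, SHR and WT. UAS-IME is above SHR and UAS-BLJ below it in AT3G60920, AT4G37900 and AT5G45510, and the order is turned in AT2G14460, AT2G02400 and AT1G24530.

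Genes encoded in the plastid genome, which are transcribed inside the organelle, were higher in UAS-IME. Of 69 tested, 26 were called higher, where 6.91% of all probe sets were, and 0 lower, and 65 had a positive change. The median change was 0.60. All 3 UAS-IME arrays were above all 3 UAS-BLJ arrays in 43 genes and below them in 2, where 21.8% of all probe sets were above and 19.7% below. The calls were spread over functions: 8 of 20 photosystem genes, 5 of 10 genes of the NADH dehydrogenase-like complex, 5 of 12 genes of the ATP synthase and the cytochrome complex, 2 of 4 RNA polymerase genes and 1 of 15 ribosomal protein genes. That 1 was rpl20, which read 467, 469 and 446 in UAS-IME and 132, 116 and 50.4 in UAS-BLJ (2.13 ± 0.35, limma, adjusted p = 0.000417). cemA, for an envelope membrane protein, read 356, 338 and 266 in UAS-IME and 107, 92.3 and 57.3 in UAS-BLJ (1.75 ± 0.26, adjusted p = 0.000181). psaB, for a core protein of photosystem I, read 1577, 1783 and 1450.1 in UAS-IME and 805, 712 and 463 in UAS-BLJ (1.29 ± 0.20). ndhD, of the NADH dehydrogenase-like complex, averaged 208 ± 20.6 in UAS-IME and 61.6 ± 14.1 in UAS-BLJ (1.54 ± 0.24). SHR averaged 79.7 for rpl20, 61.3 for cemA and 59.8 for ndhD, and none of these 3 was called between UAS-BLJ and SHR. Over the 69 genes, 10 were called higher in UAS-BLJ than in SHR and 0 lower, where 11.1% of all probe sets were called either way. In UAS-IME 38 were called higher than in SHR and 1 lower, where 21.1% of all were called. The median change against SHR was 0.18 in UAS-BLJ and 0.87 in UAS-IME.

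The level of plastid transcripts is given here beside the low end of the array signal. Summed over the 69 genes it was 43338 to 49474 in UAS-IME and 30240 to 40015 in UAS-BLJ, against 25686 to 30746 in SHR and 32690 to 35979 in WT, and 46693 to 52126 in UAS-MGP and 54181 to 69879 in UAS-SCR, whose arrays have the higher low end. UAS-NUC (34889 to 42416) and UAS-JKD (33742 to 55770) share that low end and overlap UAS-BLJ in this sum. The part of the low end in the plastid result was not tested. The median change of these genes against the mean of UAS-NUC and UAS-MGP was 0.10, where 5 of the 69 were called higher in UAS-IME and 0 lower (4.74% and 3% of all probe sets). With quantile normalization between arrays 21 of the 69 were called higher in UAS-IME than in UAS-BLJ, 16 were without UAS-IME replicate 1, and 15 were without UAS-BLJ replicate 3.

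**Figure D5:**
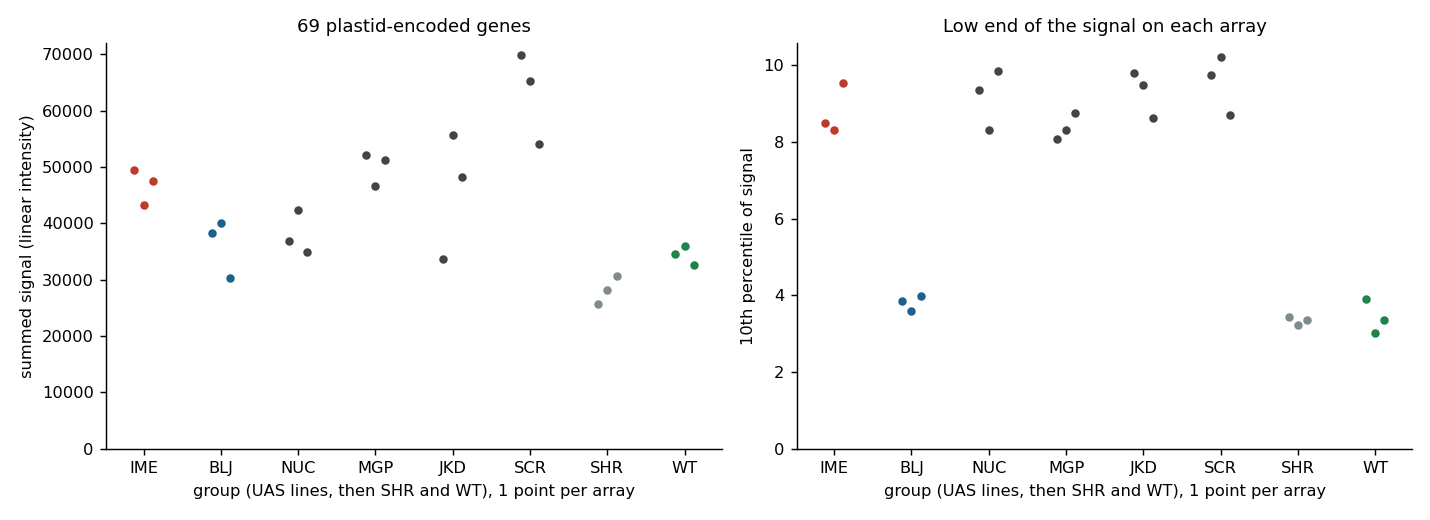
Left, summed signal of 69 plastid-encoded genes on each of 24 arrays by group. Right, 10th percentile of the signal on the same arrays. UAS-IME lies above UAS-BLJ in both, and the 10th percentile is 3.02 to 3.98 in UAS-BLJ, SHR and WT and 8.08 to 10.2 in the other groups.

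Hormone and stress lists were small. Of 6 auxin response genes 2 were higher in UAS-IME and none lower (median 0.26), where 6.91% of all probe sets were called higher. They are GH3.3 and GH3.1, which encode enzymes that join auxin or jasmonate to amino acids. GH3.3 read 3139.9, 2416 and 2306 in UAS-IME and 877, 1379.8 and 972 in UAS-BLJ, which do not overlap (1.28 ± 0.37, limma, adjusted p = 0.0275), with SHR at 1803 ± 437 and WT at 121 ± 23.2. GH3.1 was dim, at 31.7 ± 12.1 in UAS-IME and 3.24 ± 0.863 in UAS-BLJ (1.28 ± 0.34, adjusted p = 0.0181). Each lost its call without UAS-IME replicate 1, UAS-BLJ replicate 1 or UAS-BLJ replicate 3, and GH3.1 also with quantile normalization (adjusted p = 0.0615). Of 3 heat shock genes 1, ROF2, a peptidyl-prolyl isomerase of the FKBP type, was higher (203 ± 28.8 in UAS-IME and 83.8 ± 13.9 in UAS-BLJ, 1.14 ± 0.29, adjusted p = 0.0132), a call that ended without UAS-IME replicate 3 or UAS-BLJ replicate 2. HSP26.5 had a change of 1.33 ± 0.46 that was not called (adjusted p = 0.0659).

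No member was called among 5 gibberellin genes (the F-box gene SLY1 at 0.44 ± 0.16, adjusted p = 0.0792, and the receptor gene GID1A at -0.12 ± 0.14), 3 wound and stress genes (the calmodulin-like gene CML38 at 0.59 ± 0.30, and WRKY53 at 0.47 ± 0.33) or 4 genes of phenylpropanoid and lignin metabolism (the lignin precursor gene CCR2 at 0.60 ± 0.46, and the glycosyltransferase gene UGT72E3 at -0.49 ± 0.17, adjusted p = 0.0663). The same held for 2 glucosinolate genes (GSL-OH at 0.51 ± 0.32, UGT74B1 at 0.33 ± 0.16), 3 genes of endoplasmic reticulum bodies (NAI2 at 0.78 ± 0.49, NAI1 at 0.59 ± 0.25), 2 mitosis genes (AUR2 at -0.14 ± 0.33, AUR1 at -0.01 ± 0.40) and the 1 DNA replication gene, PRL (0.09 ± 0.39). UGT72E3 is a case where both lines were far above SHR (720.0 in UAS-IME and 1013 in UAS-BLJ on average, against 59.9 in SHR) while the lines were not called apart.

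Families with at least 5 tested members are read against the 11.4% of all probe sets called in either direction. Of 7 transporter genes of the NPF and NRT families, 2 were higher in UAS-IME and 1, NPF6.4, lower. GTR1, a transporter of glucosinolates, read 1628, 1435 and 1247 in UAS-IME and 680.5, 651 and 522 in UAS-BLJ (1.20 ± 0.25, limma, adjusted p = 0.00316), which do not overlap. AT2G26690, listed as NPF6.2 in the gene table, averaged 481 ± 29.5 in UAS-IME and 203 ± 17.9 in UAS-BLJ (1.19 ± 0.17). Of 15 expansins, proteins that loosen the cell wall, EXLA3 (53.4 ± 12 in UAS-IME and 5.51 ± 2.37 in UAS-BLJ, 1.68 ± 0.28) and EXLA1 (362 ± 52.1 in UAS-IME and 188 ± 48.8 in UAS-BLJ, 0.91 ± 0.21) were higher and EXPA20 lower (218 ± 44.3 in UAS-IME and 396 ± 40.8 in UAS-BLJ, -0.83 ± 0.25, adjusted p = 0.0352). The calls of EXLA1 and EXPA20 ended without UAS-BLJ replicate 3, and that of EXPA20 also without UAS-IME replicate 1 or 3 or UAS-BLJ replicate 1 or 2.

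Of 10 cytochrome P450 genes CYP71B34 was higher (0.75 ± 0.22, adjusted p = 0.0305, lost after quantile normalization) and CYP71B26 lower, as given above. Of 10 glutathione S-transferases GSTU18 was higher (195 ± 81.5 in UAS-IME and 66.9 ± 24.6 in UAS-BLJ, 1.33 ± 0.35, limma, adjusted p = 0.0175, lost without UAS-IME replicate 1 or UAS-BLJ replicate 3) and GSTL3 lower (246 ± 48.6 in UAS-IME and 437 ± 56.6 in UAS-BLJ, -0.80 ± 0.19, lost without UAS-IME replicate 3). Of 37 glycosyltransferases of the UGT family 1 was higher, UGT76E2 (0.64 ± 0.20), and 3 were lower, UGT73B4 (-0.93 ± 0.23), UGT72B3 (-0.91 ± 0.25) and UGT74D1 (-0.55 ± 0.17), and each of these 4 calls ended without at least 1 array. That of UGT76E2 also ended with quantile normalization (adjusted p = 0.111), and in 11 of its 16 alternatives in all. None of 6 WRKY genes, 8 genes of the xyloglucan endotransglucosylase family or 4 histone H2B genes was called between the lines, with changes from -0.29 to 0.47, -0.61 to 0.64 and 0.00 to 0.16 in turn. Of smaller families, 1 of 4 genes matched by name as class III peroxidases, AT5G66390 above, and the 1 auxin-induced SAUR gene tested (AT1G43040, 1.02, lost without UAS-IME replicate 1) were higher. PER9, a further class III peroxidase that was called higher, was counted with the endodermis list and is not among these 4.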

How the data were processed

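Per the submitters' processing notes the authors ran MAS5 (version not stated in the sources used), and the deposited table holds its linear intensity for each probe set in 1 colour. Samples were grouped and numbered from their titles. No label ties replicates to separate plants or sorting days, so the p-values reflect the spread among these arrays, which may be technical. Of 22810 probe sets 64 controls were left out. The platform annotation gives 1 gene for 13513, several for 503 and none for 8730, and 13484 were matched to the TAIR10.1 gene table, used for names and gene order only. BLJ, CO2, CORTEX, DIR9, EN7, GSL-OH, HSP26.5, PER9 and SGN1 are names from hand-written lists, the locus then being that of the annotation, and NPF6.4, ROF2 and SCL23 are listed names that the TAIR10.1 table holds as synonyms. The locus of BLJ in the list was corrected after the files were seen, to the one published under that name.

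Changes were tested with limma 3.58.1 (lmFit, eBayes with a trend) in R 4.3.3 on log2(intensity + 16), without further normalization, since array medians spanned 0.27 on the log2 scale. The deposited values already had a common trimmed mean of 247 to 248 on the 24 arrays, which keeps the medians close. All 24 one-cycle J0571 arrays (8 groups of 3) were fitted together. Probe sets above the 40th percentile of signal in at least 3 arrays were kept (15777 of 22746), and Benjamini-Hochberg adjustment ran over all of them. On simulated data for UAS-IME against UAS-BLJ with 15777 probe sets, 67% of changes of 1 and 97% of changes of 2 on the log2 scale were recovered, with 16 false calls among 180. There 200 probe sets were changed and normal noise was drawn independently for each probe set. The simulation held no correlation between probe sets and no shift of the low end between lines, so its rates need not hold for these arrays. SHR against WT used the same fit and a separate fit of the two-cycle arrays, where 4122 of 14331 probe sets were called.

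Genes were named by a rule: those of the labels, the 12 highest and 12 lowest changes (called, at least 2-fold, called the same way after quantile normalization, 1 gene, no shared probe set type, mean in the higher line above 183), up to 4 called members of each of 18 lists and 11 families, or the 2 largest changes where under 2 were called, and 3 genes each way called on opposite sides of SHR. Exceptions are marked in the text. Of 251 listed genes 50 had a named probe set. Lists, members and comparisons were chosen with earlier results of these data known. Alternatives were other pseudocounts, filters, quantile normalization, no trend, the 6 arrays alone, the replicate number as a block, and each array left out.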

Additional observations from a re-analysis of the deposited data

Results flagged for a closer look

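The 6 genes named for lying on opposite sides of SHR moved in opposite directions against the same SHR arrays in the lines. They were chosen for these calls and for a call between the lines. The differences below therefore follow from the choice and are no further test. UAS-IME minus UAS-BLJ was 2.39 for AT3G60920, 1.70 for AT4G37900 and 1.70 for AT5G45510, higher in UAS-IME on all of its 3 arrays. It was -4.65 for AT2G14460, -1.59 for AT2G02400 and -1.84 for AT1G24530, lower in UAS-IME on all of its 3 arrays. AT4G37900 was the weakest against SHR, at 0.84 ± 0.28 in UAS-IME (limma, adjusted p = 0.0364) and -0.86 ± 0.28 in UAS-BLJ (adjusted p = 0.0493), with 1 UAS-BLJ array at the level of SHR. Groups of 3 arrays are too small for a check of single outlying arrays.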

How the results depend on the processing

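The 1800 calls between the lines moved most with the arrays used. Fitted alone, the 6 arrays gave 3462 calls (2019 higher, 1443 lower), and with quantile normalization 3311 (1715 and 1596), an alternative added after seeing the data. Leaving out 1 array gave 843 to 1258 calls, 451 to 754 of them higher and 387 to 504 lower, and 394 to 593 of at least 2-fold. Quantile normalization without UAS-IME replicate 1, also added after seeing the data, gave 756 (326 higher, 430 lower), with 349 of at least 2-fold. A pseudocount of 64 left 272 of at least 2-fold. The 3333 calls of UAS-IME against SHR were 1911 to 2687 without 1 array. The replicate numbers are no known pairing (correlations of same-numbered deviations of -0.08, -0.33 and 0.21): with the number as a block there were 3124 calls over the 6 arrays (1869 higher, 1255 lower) and 1833 over the 24. For 78 named genes, 1193 of 1316 values kept their call, 123 lost it and 0 reversed. The cause of these movements was not tested. Dim probe sets have understated changes, and the low end of the signal limits them most.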
